A study of Mus musculus with 3 samples.

Results

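The genes described here belong to MHC class II antigen presentation and were chosen by name: Cd74, H2-Aa, H2-Ab1, H2-Eb1, H2-DMa, H2-DMb1, H2-DMb2, Ciita and Ctss. All 9 were found by symbol among the 21760 genes of a table of read counts from mouse cornea, with NCBI gene IDs 16149, 14960, 14961, 14969, 14998, 14999, 15000, 12265 and 13040 in that sequence. The 6 H2 genes lie on chromosome 17, Cd74 on 18, Ciita on 16 and Ctss on 3 (GENCODE vM21). The 3 libraries, 1 per group, came from corneas of mice that received PNU-282987, which activates the α7 nicotinic acetylcholine receptor, as eyedrops given 3 times per day, of mice whose lacrimal gland had been excised (a surgical model of dry eye), and of sham mice with an incision that spared the glands. The labels give no strain, age, sex or duration, do not say whether the PNU-282987 mice had also lost the gland, and do not say whether several corneas were pooled. The question named for the study is how this receptor regulates dry eye disease.

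Class II molecules display peptides from engulfed material to CD4+ T cells. The α and β chains assemble on the invariant chain Cd74, which fills the groove and steers the complex to endosomes. There the protease cathepsin S (Ctss) trims the invariant chain and the DM dimer (H2-DMa with H2-DMb1 or H2-DMb2) exchanges its last fragment for a peptide. Ciita, the class II transactivator, does not bind DNA itself: it docks on the RFX, CREB and NF-Y factors that sit on the X and Y boxes of class II promoters. In the cornea class II molecules are known mainly from resident antigen-presenting cells, and interferon-γ can induce them in other cells through Ciita.

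Total gene counts were 39616004 in PNU-282987, 37692972 in excision and 37703843 in sham. Levels are in CPM, counts brought to a common library size with TMM factors, and 1 count was worth 0.0258, 0.0269 and 0.0256 CPM in PNU-282987, excision and sham. Each group had 1 library, so variation among animals is unknown and nothing was tested. Every ratio compares 2 libraries, and its 95% interval reflects counting alone. Genes were called at a ratio of 2-fold or more whose interval left out 1. The corneal epithelial markers Krt12, Krt5, Krt14, Pax6 and Aldh3a1 had at least 9011 counts in every library, as the labelled tissue should have, and 1 of the 10 epithelial genes, Krt15, was called, higher in excision and in PNU-282987 than in sham. The lens gene Cryaa had 8774, 175 and 9525 counts in PNU-282987, excision and sham, and the goblet cell mucin Muc5ac had 2980, 11 and 1 in PNU-282987, excision and sham. All 11 lens genes were lower in excision than in sham and higher in PNU-282987 than in excision, and 1 was lower in PNU-282987 than in sham. Of 10 conjunctival and gland genes 10 were higher in PNU-282987 than in sham, 6 higher in PNU-282987 than in excision and 4 higher in excision than in sham. Of 5 measured red blood cell genes 4 were lower in excision than in sham, 3 lower in PNU-282987 than in excision and 4 lower in PNU-282987 than in sham. Of 5 measured vascular and lymphatic genes 1 was higher (Flt4) and 1 lower (Kdr) in excision than in sham, 2 (Flt4 and Pecam1) lower in PNU-282987 than in excision and 0 called between PNU-282987 and sham. The part of these tissues in the class II levels was not tested.

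The promoters of 6 of the 9 genes were in the RefSeq promoter table (build GRCm38.p6). Shown are 4 that hold letters known from the control elements of such promoters. That of H2-DMb1 holds such letters too but is left out, because an annotated UTR begins before they end. A match is a description of the letters, not a measured binding site. In H2-Aa, H2-Eb1 and H2-DMb2 the capitals mark the core of an X box (letters CTNNNAAC) and, 27 or 28 bases further on, the Y box ATTGG, the letters NF-Y is known to bind. In H2-Aa they also mark TGACGTCA, the letters CREB is known to bind, right after the X box core. In Ctss they mark the core of an interferon-stimulated response element, GAAA and again GAAA with 2 bases between. Each sequence runs 5′ to 3′ on the gene's own strand and ends before the start of the transcript, that of H2-DMb2 a little earlier, where an annotated UTR begins.
H2-Aa (chr17:34287824-34288023, minus strand): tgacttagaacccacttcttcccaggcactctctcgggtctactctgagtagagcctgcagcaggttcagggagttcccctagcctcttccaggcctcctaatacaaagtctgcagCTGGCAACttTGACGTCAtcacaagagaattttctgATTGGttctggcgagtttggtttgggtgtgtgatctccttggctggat
H2-Eb1 (chr17:34305667-34305866, plus strand): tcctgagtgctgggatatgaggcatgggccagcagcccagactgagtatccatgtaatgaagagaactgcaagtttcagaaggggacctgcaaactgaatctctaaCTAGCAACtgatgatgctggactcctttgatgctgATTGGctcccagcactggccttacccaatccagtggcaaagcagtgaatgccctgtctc
H2-DMb2 (chr17:34145049-34145235, plus strand): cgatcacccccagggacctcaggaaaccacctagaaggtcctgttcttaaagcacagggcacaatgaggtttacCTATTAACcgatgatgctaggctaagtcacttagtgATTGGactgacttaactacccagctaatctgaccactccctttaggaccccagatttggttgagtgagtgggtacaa
Ctss (chr3:95526586-95526785, plus strand): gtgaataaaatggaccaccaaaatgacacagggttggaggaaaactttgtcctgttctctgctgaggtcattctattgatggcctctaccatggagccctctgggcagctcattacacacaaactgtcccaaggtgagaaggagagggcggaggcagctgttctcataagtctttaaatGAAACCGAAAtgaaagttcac

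Both strands of the 250 bases before each start were searched, in 32851 windows of 27025 genes, after the class II promoters had been read. The X and Y pair at that spacing was in 30 windows (0.0913%), among them those of H2-Aa, H2-Eb1, H2-DMb1 and H2-DMb2. The Y box alone, which is contained in the pair, was in 33.8% of windows and the X box core in 35.7%. Neither window of H2-DMa nor that of Ctss held the pair. TGACGTCA was in 1.55% of windows and the interferon-stimulated core in 2.98%, and its match in Ctss ended 12 bases before the start.

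The invariant chain and the 3 peptide-binding chain genes were highest in the excision library, lowest in sham and in between in PNU-282987. Cd74, H2-Ab1 and H2-Eb1 kept their proportions within counting error, while H2-Aa differed less between PNU-282987 and excision than Cd74 did. Cd74 had 591 counts in PNU-282987 (15.2 CPM, 95% interval 14.0 to 16.5), 2297 in excision (61.9 CPM, 59.4 to 64.5) and 282 in sham (7.22 CPM, 6.40 to 8.11). H2-Eb1, the β chain of the E molecule, had 253, 969 and 119 counts in PNU-282987, excision and sham. H2-Ab1, the β chain of the A molecule, had 204, 736 and 94 counts in PNU-282987, excision and sham. None of the intervals of these levels overlapped between libraries. H2-Aa, the α chain that pairs with H2-Ab1, had 301, 796 and 116 counts in PNU-282987, excision and sham, which is 7.75, 21.4 and 2.97 CPM, again without overlap of the intervals.

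**Figure D1:**
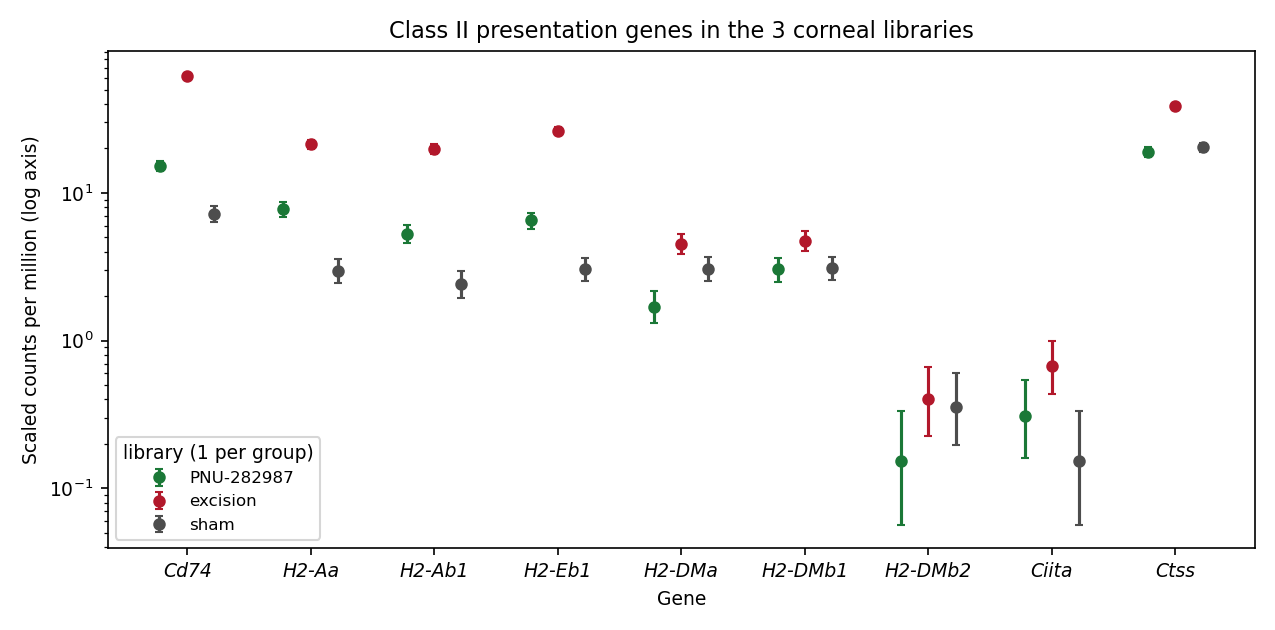
Scaled CPM (log axis) of the 9 genes in the PNU-282987, excision and sham libraries, 1 library per group, with exact Poisson 95% intervals of the counts. Cd74, H2-Aa, H2-Ab1 and H2-Eb1 are highest in excision, with PNU-282987 between excision and sham, whereas Ctss and H2-DMb1 have nearly the same level in PNU-282987 and sham.

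Excision against sham gave 8.57-fold for Cd74 (7.57 to 9.73), 8.57-fold for H2-Eb1 (7.08 to 10.5), 8.24-fold for H2-Ab1 (6.64 to 10.3) and 7.22-fold for H2-Aa (5.93 to 8.85). The 4 intervals overlapped one another. Summed, these 4 genes had 4798 counts in excision (129 CPM) and 611 in sham (15.6 CPM), a ratio of 8.26 (7.59 to 9.0). PNU-282987 against excision gave 4.07-fold lower Cd74 (3.71 to 4.46), 4.01-fold lower H2-Eb1 (3.49 to 4.62) and 3.77-fold lower H2-Ab1 (3.23 to 4.43). H2-Aa was lower by less in that comparison, 2.77-fold (2.42 to 3.17). The sum of the 4 genes was 1349 counts in PNU-282987 and 4798 in excision, 3.72-fold lower (3.50 to 3.96). PNU-282987 against sham gave 2.61-fold higher H2-Aa (2.10 to 3.26), 2.18-fold higher H2-Ab1 (1.70 to 2.82), 2.14-fold higher H2-Eb1 (1.71 to 2.68) and 2.11-fold higher Cd74 (1.83 to 2.44). The sum of the 4 was 2.22-fold higher in PNU-282987 than in sham (34.7 and 15.6 CPM; interval 2.02 to 2.45). With library totals in place of TMM factors Cd74 was 1.99-fold higher in PNU-282987 than in sham, which misses the 2-fold call. The comparisons share libraries in pairs, so their ratios are not independent of one another.

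**Figure D2:**
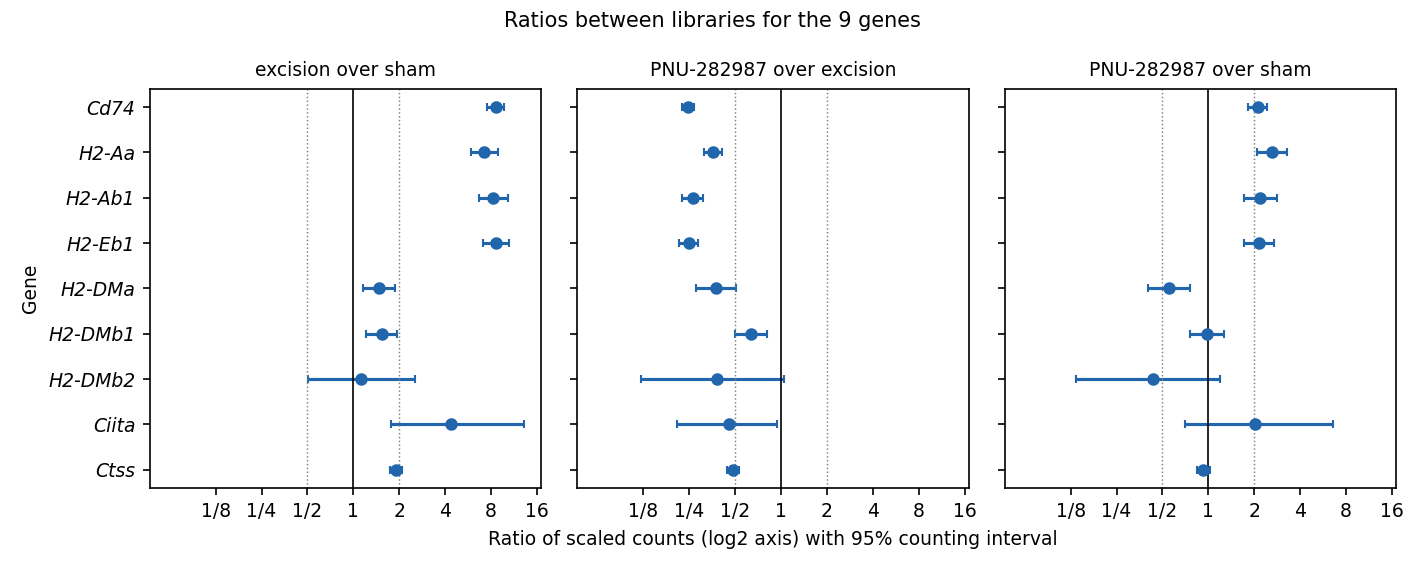
Ratio of scaled counts (log2 axis) of each of the 9 genes for excision over sham, PNU-282987 over excision and PNU-282987 over sham, with exact conditional binomial 95% intervals and dotted lines at 2-fold. The 4 genes from Cd74 to H2-Eb1 lie together, at 7.22 to 8.57 for excision over sham, apart from the DM genes and Ctss, which lie between 1.13 and 1.89.

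How far these 4 genes kept their proportions can be read from their shares of the summed counts, which no scaling affects. Cd74 took 43.8% of them in PNU-282987 (exact Clopper-Pearson 95% interval 41.1 to 46.5), 47.9% in excision (46.5 to 49.3) and 46.2% in sham (42.1 to 50.2). H2-Ab1 took 15.1%, 15.3% and 15.4% in PNU-282987, excision and sham, and H2-Eb1 took 18.8%, 20.2% and 19.5% in PNU-282987, excision and sham. The shares of Cd74, H2-Ab1 and H2-Eb1 had overlapping intervals in each pair of libraries, for Cd74 in PNU-282987 and excision only at their very ends. H2-Aa took 22.3% in PNU-282987 (20.1 to 24.6), 16.6% in excision (15.5 to 17.7) and 19.0% in sham (15.9 to 22.3). Relative to Cd74, H2-Aa was 1.47-fold higher in PNU-282987 than in excision (1.25 to 1.73), while H2-Ab1 (1.08-fold, 0.895 to 1.29) and H2-Eb1 (1.01-fold, 0.856 to 1.20) stayed within counting error of it.

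**Figure D3:**
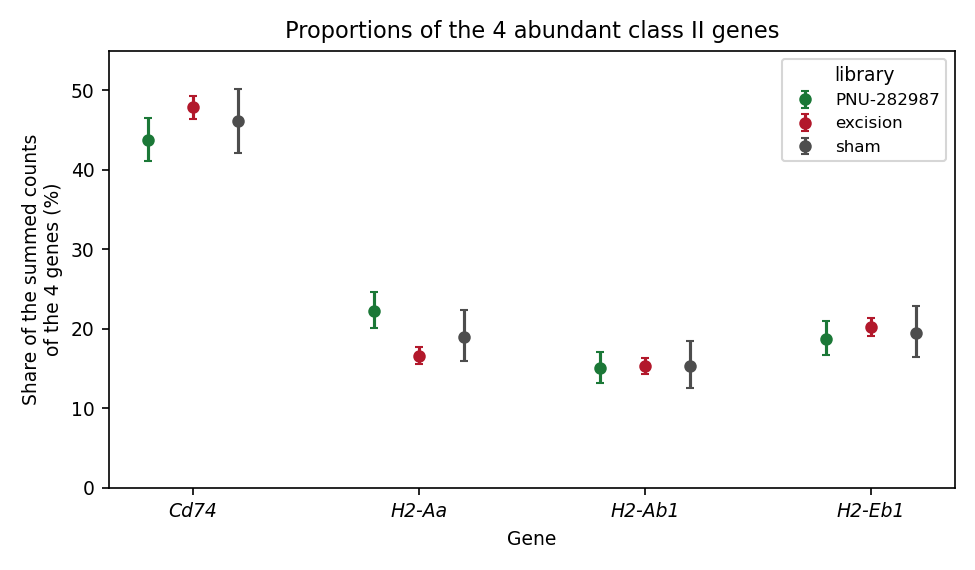
Share, in percent, of Cd74, H2-Aa, H2-Ab1 and H2-Eb1 in the summed counts of the 4 genes in the PNU-282987, excision and sham libraries, with exact 95% binomial intervals. H2-Aa has a larger share in PNU-282987 (22.3%) than in excision (16.6%), and H2-Ab1 has 15.1% to 15.4% in the 3 libraries.

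The DM genes, which encode the peptide exchange factor, differed far less between excision and sham. H2-DMb1 had 118 counts in PNU-282987, 176 in excision and 121 in sham. It was 1.53-fold higher in excision than in sham (1.21 to 1.95), 1.56-fold lower in PNU-282987 than in excision (1.23 to 1.99) and within counting error between PNU-282987 and sham (0.981, 0.755 to 1.27). H2-DMa, the partner chain, had 66, 167 and 120 counts in PNU-282987, excision and sham, and was the member for which PNU-282987 lay clearly below sham (1.81-fold lower, 1.33 to 2.48). It was 2.65-fold lower in PNU-282987 than in excision (1.98 to 3.58) and 1.46-fold higher in excision than in sham (1.15 to 1.87). H2-DMb2, the second β chain gene, had 6, 15 and 14 counts in PNU-282987, excision and sham, below the minimum of 20, and no pair of libraries could be told apart at this depth.

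For excision against sham the difference between DM genes and invariant chain was itself beyond counting error. Relative to Cd74, excision against sham was 5.59-fold smaller for H2-DMb1 (4.26 to 7.33), 5.85-fold smaller for H2-DMa (4.44 to 7.69) and 7.59-fold smaller for H2-DMb2 (3.36 to 17.1). H2-DMb1 and H2-DMb2 are near copies: 27.2% of the 50-base words of the longest coding H2-DMb1 transcript also occur in H2-DMb2 transcripts (GENCODE vM21), so reads may be shared or lost between them. Their sum, 124, 191 and 135 counts in PNU-282987, excision and sham, gave 1.49-fold for excision against sham (1.19 to 1.87). H2-DMa shares 360 exonic bases with Brd2 on the opposite strand, which had 4161, 4839 and 4032 counts in PNU-282987, excision and sham. The strand setting of the counting is not given in the sources used here, and the part of Brd2 reads in H2-DMa was not tested. The promoters of H2-DMb1 and H2-DMb2, like those of H2-Aa and H2-Eb1, matched the X and Y pair pattern. Its part in the levels was not tested.

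Ciita, the regulator, was close to the detection limit. It had 12 counts in PNU-282987 (0.309 CPM, 0.160 to 0.540), 25 in excision (0.673 CPM, 0.436 to 0.994) and 6 in sham (0.154 CPM, 0.0564 to 0.334). The order of the libraries was that of Cd74. Excision against sham was 4.38-fold higher (1.76 to 13.1), PNU-282987 against excision 2.18-fold lower (1.06 to 4.76), and PNU-282987 against sham could not be told apart at this depth (2.01-fold higher, 0.699 to 6.53). The Ciita ratio did not differ from that of Cd74 beyond counting error in any of the 3 comparisons, although the intervals were wide. For excision against sham the ratio of the 2 ratios was 0.512 (0.203 to 1.54). Ciita reached the minimum of 20 counts in excision alone, so the filter favoured a high ratio there. It shares 329 exonic bases with Dexi on the opposite strand, which had 405, 364 and 387 counts in PNU-282987, excision and sham, within 1.06-fold in every pair, and the part of Dexi reads in Ciita was not tested.

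Ctss, cathepsin S, followed a different course from the chains. It had 734 counts in PNU-282987 (18.9 CPM, 17.6 to 20.3), 1435 in excision (38.7 CPM, 36.7 to 40.7) and 797 in sham (20.4 CPM, 19.0 to 21.9). Excision stood above both other libraries, whose intervals overlapped. Excision against sham was 1.89-fold higher (1.74 to 2.07), PNU-282987 against excision 2.05-fold lower (1.87 to 2.24) and PNU-282987 against sham 1.08-fold lower (0.975 to 1.20). Relative to Ctss, Cd74 was 4.52-fold higher in excision than in sham (3.88 to 5.28) and 2.27-fold higher in PNU-282987 than in sham (1.91 to 2.72). H2-DMb1 stayed within counting error of Ctss for excision against sham (0.808, 0.627 to 1.04) and for PNU-282987 against sham (1.06, 0.798 to 1.40). For PNU-282987 against excision it was 1.31-fold higher relative to Ctss (1.01 to 1.69). H2-DMa was lower relative to Ctss for PNU-282987 against sham (0.597, 0.428 to 0.828) and within counting error of it in the other comparisons.

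Of the 9 genes 8 reached 20 counts in a library, and 7 did so in every library. In the excision to sham comparison 5 of the 8 were higher and 0 lower, against 4.01% of 14180 genes higher and 5.48% lower. In PNU-282987 set against excision 7 of the 8 were lower and 0 higher, beside 5.62% of genes lower and 3.9% higher, and H2-DMb1 was the remaining member. In PNU-282987 set against sham 4 of the 8 were higher and 0 lower, beside 2.58% of genes higher and 4.96% lower. Among the 7 members with 20 counts in every library, which leaves out Ciita, excision had 4 higher and 0 lower than sham, where 2.17% of the 12723 genes of that kind were higher and 2.81% lower. Among the same 7, 6 were lower and 0 higher in PNU-282987 than in excision (3.05% lower and 1.96% higher over those genes), and 4 were higher and 0 lower in PNU-282987 than in sham (1.19% higher and 2.2% lower). The median log2 ratio of the 8 members was 2.49 (excision/sham), -1.44 (PNU-282987/excision) and 1.04 (PNU-282987/sham). Over all genes the medians were -0.0026 (excision/sham), 0.0076 (PNU-282987/excision) and 0.0003 (PNU-282987/sham). The members were not chosen at random, so these shares describe them and test nothing.

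**Figure D4:**
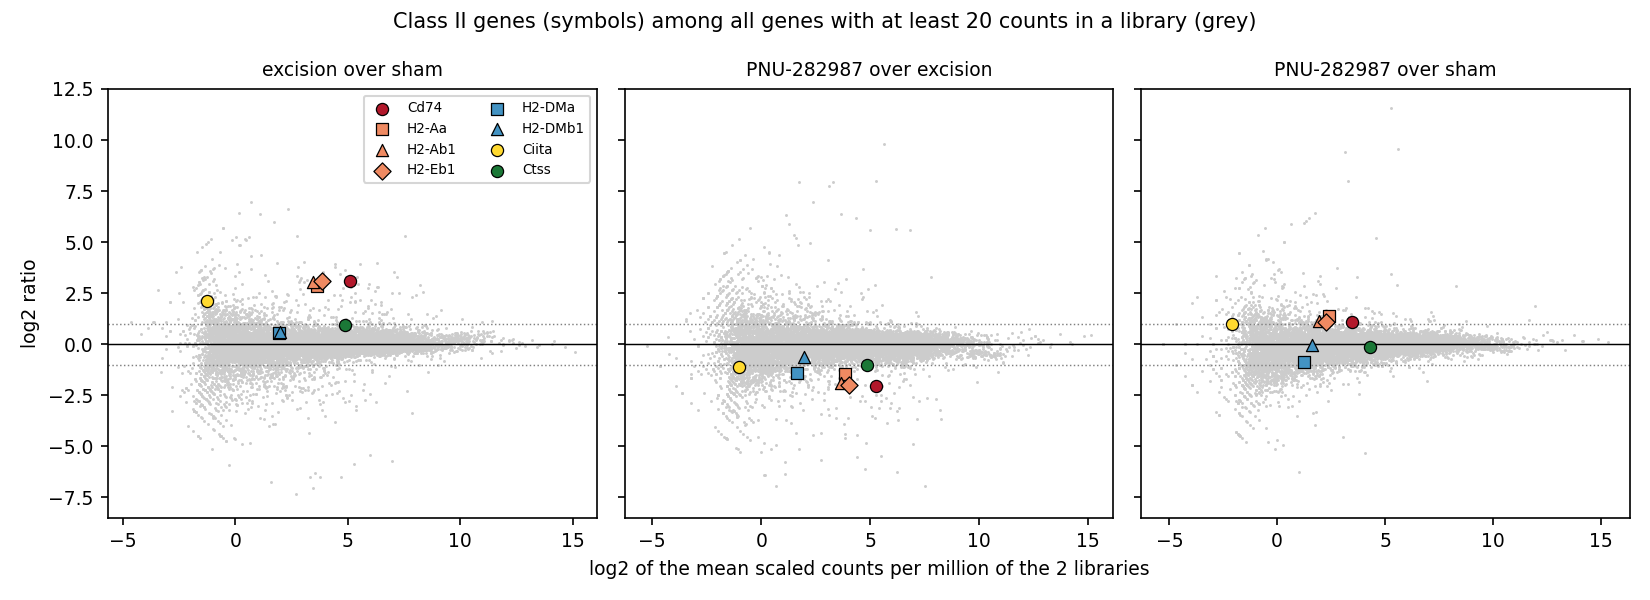
log2 ratio against the log2 mean scaled CPM for the 14180 genes with at least 20 counts in a library (grey) and the 8 members among them (symbols), for excision over sham, PNU-282987 over excision and PNU-282987 over sham, with dotted lines at 2-fold. The invariant and peptide-binding chains lie beyond the 2-fold lines in all 3 panels, while Ctss and H2-DMb1 lie near 0 for PNU-282987 over sham.

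Levels of different genes were set side by side per kilobase of the longest coding transcript (GENCODE vM21), since the sources used here do not name the authors' gene models. In sham the order was Ctss (15.1 CPM per kilobase), Cd74 (5.12), H2-Aa (2.63), H2-DMb1 (2.21), H2-Ab1 (1.99), H2-Eb1 (1.83), H2-DMa (1.53), H2-DMb2 (0.242) and Ciita (0.0256). From H2-Aa to H2-DMa each neighbour's counting interval overlapped the next. In excision Cd74 (43.9 CPM per kilobase) stood above Ctss (28.5), followed by H2-Aa (19.0), H2-Ab1 (16.4), H2-Eb1 (15.6), H2-DMb1 (3.38), H2-DMa (2.24), H2-DMb2 (0.272) and Ciita (0.112). There the chain genes were clearly above the DM genes, and only H2-Ab1 with H2-Eb1 and H2-DMb2 with Ciita overlapped. In PNU-282987 Ctss (13.9 CPM per kilobase) was first, then Cd74 (10.8), H2-Aa (6.87), H2-Ab1 (4.33), H2-Eb1 (3.90), H2-DMb1 (2.16), H2-DMa (0.848), H2-DMb2 (0.104) and Ciita (0.0514). The same pairs overlapped as in excision.

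The remaining class II chain genes were barely detected. H2-Ob and H2-Oa, which form the DO dimer that restrains DM and is best known from B cells, had 0 and 0 counts in PNU-282987, 7 and 4 in excision, and 1 and 0 in sham. H2-Eb2 had 0, 1 and 0 counts in PNU-282987, excision and sham. Where nothing was counted, up to 3 counts are possible, equal to 0.0773 CPM in PNU-282987, 0.0808 CPM in excision and 0.0768 CPM in sham.

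The DNA-binding factors on which Ciita docks were well measured, and 0 of 7 were called in any of the 3 comparisons. The median log2 ratios of this list were 0.0083 (excision/sham), 0.14 (PNU-282987/excision) and 0.10 (PNU-282987/sham). Rfx5, a subunit of RFX, had 823 counts in PNU-282987, 814 in excision and 857 in sham. Its partners Rfxap (491, 406 and 386 counts in PNU-282987, excision and sham) and Rfxank (395, 433 and 422 counts in PNU-282987, excision and sham) were within 1.28-fold in every pair. Of the NF-Y subunits, Nfya had 1380, 1293 and 1292 counts, Nfyb 944, 783 and 949, and Nfyc 1265, 1003 and 1155 in PNU-282987, excision and sham. Creb1, which binds the X2 box, had 1524, 1325 and 1386 counts in PNU-282987, excision and sham. Every one of the 7 was thus within 1.28-fold between any 2 libraries, at levels far above that of Ciita.

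Some genes lie on the route by which interferon-γ induces Ciita. Ifng, the gene of the cytokine, had 0, 1 and 0 counts in PNU-282987, excision and sham, so no ratio could be given. The receptor gene Ifngr1 had 3871, 2564 and 3144 counts and Ifngr2 had 4678, 3327 and 4558 in PNU-282987, excision and sham, both lowest in excision. The kinase gene Jak1 had 9259, 6723 and 7288 counts and Jak2 had 2748, 2143 and 1973 in PNU-282987, excision and sham, both highest in PNU-282987. Irf1 had 14434, 14606 and 13565 counts and Usf1 had 2062, 1965 and 2074 in PNU-282987, excision and sham. Both encode factors that bind the inducible promoter of Ciita, and both were within 1.13-fold in every pair.

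Other steps of the pathway mostly stayed within 2-fold. Of 10 genes of lysosomal antigen processing, among them Ifi30, the thiol reductase that unfolds antigens, and the proteases Lgmn, Ctsb, Ctsd, Ctsh, Ctsl and Ctsz, 0 were called in any comparison. Their median log2 ratios were -0.051 (excision/sham), 0.086 (PNU-282987/excision) and 0.057 (PNU-282987/sham). Ctsl, the other protease known to trim the invariant chain, had 34796 counts in PNU-282987, 30128 in excision and 34207 in sham. Of the turnover and partner list 3 of 5 genes were measured and 0 called. Mif, a ligand of Cd74, had 4238, 5530 and 4460 counts, and Cd44, the signalling partner of Cd74, had 9023, 12219 and 13052 in PNU-282987, excision and sham. Marchf1, a ubiquitin ligase that removes class II molecules from the surface, had 1, 4 and 16 counts in PNU-282987, excision and sham, below the minimum.

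Of the costimulatory and checkpoint ligands, few were called. Of 7 genes 5 were measured, and 0 were called for excision against sham (median log2 ratio -0.43). Cd80 had 17, 24 and 34 counts in PNU-282987, excision and sham, and Cd40 had 54, 91 and 146 counts there, with PNU-282987 lowest and sham highest. Cd274, which encodes PD-L1, had 4967, 7523 and 6012, and Icosl had 1811, 1733 and 1334 in PNU-282987, excision and sham. Cd40 was 2.69-fold lower in PNU-282987 than in sham (1.95 to 3.75). Icam1, an adhesion molecule for T cells, had 138, 41 and 65 counts in PNU-282987, excision and sham, 3.22-fold higher in PNU-282987 than in excision (2.26 to 4.68) and 2.14-fold higher in PNU-282987 than in sham (1.58 to 2.91). Cd86 had 1, 11 and 7 counts in PNU-282987, excision and sham, below the minimum.

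MHC class I genes, which present peptides made inside the cell, shared the excision difference without the difference between PNU-282987 and sham. Of 12 class I and loading genes 6 were higher in excision than in sham and 0 lower, 6 were lower in PNU-282987 than in excision and 0 higher, and 0 were called for PNU-282987 against sham. Nlrc5, the class I counterpart of Ciita, had 10, 489 and 13 counts in PNU-282987, excision and sham. It reached the minimum only through excision. Of the other 11 genes, with 20 counts in every library, 5 were higher in excision than in sham, beside 2.17% of all genes of that kind. In PNU-282987 5 of the 11 were lower than in excision, beside 3.05% of those genes, and 0 were called against sham. B2m, the light chain of class I, had 2657, 16512 and 3264 counts in PNU-282987, excision and sham. The heavy chain gene H2-K1 had 10680, 23382 and 10176, the peptide transporter gene Tap1 1698, 3658 and 1345, and the immunoproteasome gene Psmb9 947, 2594 and 1224 in PNU-282987, excision and sham. The summed class II chains differed more from sham than the summed class I list did. Relative to that list they were 3.95-fold higher in excision than in sham (3.63 to 4.30), 1.91-fold lower in PNU-282987 than in excision (1.79 to 2.03) and 2.07-fold higher in PNU-282987 than in sham (1.88 to 2.28). Relative to B2m alone they were 1.55-fold higher in excision than in sham (1.41 to 1.71) and 1.75-fold higher in PNU-282987 than in excision (1.62 to 1.88), B2m itself being lower there by more than they were. In the authors' deposited annotation, 63 further genes belong to the antigen processing and presentation pathway, of which 45 were measured. Of these excision had 13 higher and 2 lower (Calr4 and Tnf) than sham, 0 were higher and 11 lower in PNU-282987 than in excision, and 0 were higher and 3 lower (Calr4, Tnf and H2-T-ps) in PNU-282987 than in sham. Of the 38 with 20 counts in every library, excision had 8 higher and 1 lower than sham, beside 2.17% and 2.81% of all such genes. Of the same 38, 0 were higher and 6 lower in PNU-282987 than in excision, beside 1.96% and 3.05%. Against sham PNU-282987 had 0 higher and 1 lower, beside 1.19% and 2.2%. The class I list and this pathway overlap.

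Markers of the cells that could carry class II molecules also differed between the libraries. In bulk tissue fewer cells of a type and less RNA per cell cannot be told apart. The pan-leukocyte genes Ptprc, Coro1a, Laptm5, Cd52, Cd53 and Lcp1 summed to 274 counts in PNU-282987 (7.06 CPM), 767 in excision (20.7 CPM) and 355 in sham (9.09 CPM). Of the 6, 4 were higher in excision than in sham and 6 lower in PNU-282987 than in excision. Over all genes with 20 counts in a library these shares were 4.01% and 5.62%. Ptprc, the common leukocyte antigen CD45, had 17, 36 and 6 counts in PNU-282987, excision and sham. It was the single pan-leukocyte gene called higher in PNU-282987 than in sham (2.85-fold, 1.07 to 8.83), and the summed list was 1.29-fold lower there. Ptprc reached the minimum only through excision. Of the other 5 genes, with 20 counts in every library, 3 were higher in excision than in sham, beside 2.17% of all genes of that kind. Of the same 5, 5 were lower in PNU-282987 than in excision, beside 3.05%, and 0 were called between PNU-282987 and sham. Per pan-leukocyte count there were 4.92 counts of the 4 abundant class II genes in PNU-282987, 6.26 in excision and 1.72 in sham. That quotient was 3.63-fold higher in excision than in sham (3.11 to 4.24), 1.27-fold lower in PNU-282987 than in excision (1.09 to 1.48) and 2.86-fold higher in PNU-282987 than in sham (2.37 to 3.45).

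**Figure D5:**
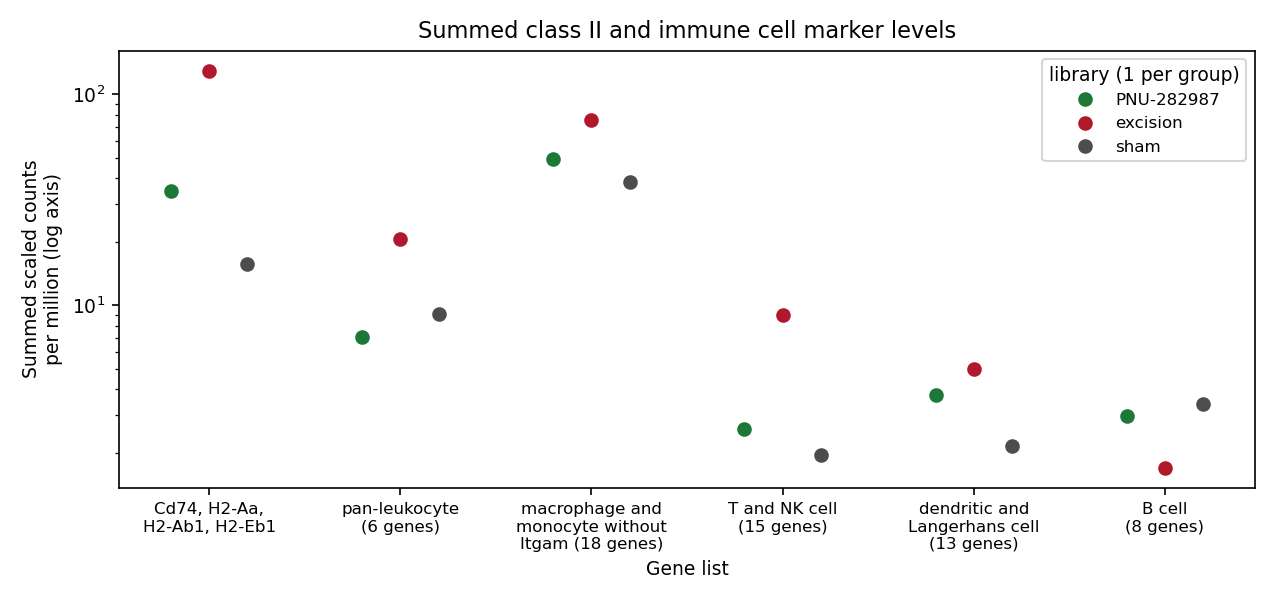
Summed scaled CPM (log axis) of the 4 abundant class II genes and of 5 lists of immune cell markers in the PNU-282987, excision and sham libraries, 1 library per group. The class II sum is 34.7, 129 and 15.6 CPM in PNU-282987, excision and sham, and the pan-leukocyte, macrophage, T and NK cell and dendritic cell lists are highest in excision, while the B cell list is lowest there.

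Among the macrophage and monocyte markers 8 of 17 measured genes were higher in excision than in sham and 0 lower, 9 were lower in PNU-282987 than in excision and 0 higher, and for PNU-282987 against sham 0 were higher and 1 lower. Some of the 17 reached the minimum only through the library where they were high, as Mrc1 and Lyve1 did through excision. Of the 12 with 20 counts in every library excision had 5 higher and 0 lower than sham, beside 2.17% and 2.81% of all such genes. Of the same 12, 4 were lower and 0 higher in PNU-282987 than in excision, beside 3.05% and 1.96%. Between PNU-282987 and sham 0 were called. The complement genes C1qa (139, 260 and 80 counts in PNU-282987, excision and sham) and C1qb (72, 249 and 82) and the Fc receptor subunit gene Fcer1g (25, 69 and 17) were highest in excision. The phagocyte receptor gene Mrc1 had 3, 33 and 6 counts and Lyve1, a hyaluronan receptor gene also known from lymphatic vessels, had 1, 23 and 2 in PNU-282987, excision and sham. Ly6c2, a monocyte gene, had 5, 26 and 37 counts in PNU-282987, excision and sham and was the 1 called lower in PNU-282987 than in sham. Itgam gave most of the list's counts (6949, 9385 and 6871 in PNU-282987, excision and sham), far above those of Adgre1 (23, 37 and 22 in PNU-282987, excision and sham), and whether these came from macrophages was not tested. Without Itgam, the class II chains per macrophage count were 4.18-fold higher in excision than in sham (3.76 to 4.65), 2.42-fold lower in PNU-282987 than in excision (2.22 to 2.64) and 1.72-fold higher in PNU-282987 than in sham (1.53 to 1.94). The libraries held 0.152, 0.394 and 0.0731 class II counts per count of the whole list in PNU-282987, excision and sham, and 0.707, 1.71 and 0.410 without Itgam.

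Dendritic cell markers were sparse, and 2 of 13 genes were measured, Itgax (11, 33 and 7 counts in PNU-282987, excision and sham) and Irf8 (111, 102 and 46 counts in PNU-282987, excision and sham). Irf8 was 2.43-fold higher in PNU-282987 than in sham (1.71 to 3.50) and 2.33-fold higher in excision than in sham (1.63 to 3.38), and Itgax was 4.96-fold higher in excision than in sham (2.16 to 13.3) and 3.14-fold lower in PNU-282987 than in excision (1.55 to 6.88). Itgax reached the minimum only in excision, so the filter favoured both of its calls. Irf8, the 1 gene with 20 counts in every library, had a log2 ratio of 0.057 between PNU-282987 and excision and was not called there. Irf8 alone gave 111, 102 and 46 of the list's counts in PNU-282987, excision and sham. Quotients over the summed list therefore lean on that gene, and the list without it was not tried. The summed list had 145, 185 and 84 counts in PNU-282987, excision and sham. Relative to it the class II chains were 3.56-fold higher in excision than in sham (2.68 to 4.71), 2.79-fold lower in PNU-282987 than in excision (2.21 to 3.51) and 1.28-fold higher in PNU-282987 than in sham, within counting error (0.949 to 1.72). Of the other defining markers Flt3, Xcr1, Clec9a and Batf3 had at most 2 counts in any library, and Cd207, the Langerhans cell lectin, had 1, 8 and 3 in PNU-282987, excision and sham.

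Summed B cell markers went the other way, and Cr2 alone made up much of the difference between excision and sham. The 8 listed genes found in the table summed to 116, 63 and 133 counts in PNU-282987, excision and sham. Cd79a, Cd22 and Blk had 0 counts in excision, where Fcer2a had 14. Cr2, 1 of 2 measured B cell genes, had 24, 2 and 48 counts in PNU-282987, excision and sham and was called lower in excision than in sham and higher in PNU-282987 than in excision. It was below the minimum in excision, and Cd79b, the 1 B cell gene with 20 counts in every library (67, 42 and 55 counts in PNU-282987, excision and sham), was not called. T and NK cell markers summed to 100, 333 and 76 counts in PNU-282987, excision and sham, with Cd4 at 2, 6 and 0 and Cd8a at 1, 37 and 0 in PNU-282987, excision and sham. Of 6 measured T and NK genes excision had 5 higher and 0 lower than sham, 4 lower and 0 higher in PNU-282987 than in excision, and 1 (Gzma) higher in PNU-282987 than in sham. Over all genes at that minimum, 4.01% were higher in excision than in sham. In PNU-282987 5.62% were lower than in excision and 2.58% higher than in sham. Cd3g, Cd8a, Gzma, Nkg7 and Lck reached the minimum only through excision, and the 1 gene with 20 counts in every library, Cd5 (43, 62 and 45 counts in PNU-282987, excision and sham), was not called. Relative to the T and NK sum the class II chains were 1.79-fold higher in excision than in sham (1.36 to 2.34), 1.07-fold lower in PNU-282987 than in excision (0.839 to 1.35) and 1.68-fold higher in PNU-282987 than in sham (1.21 to 2.32). In sham Cd5 gave 45 of the 76 T and NK counts, against 43 of 100 in PNU-282987 and 62 of 333 in excision. The quotients against sham lean on this gene, and the list without it was not tried. The part of any of these cells in the class II levels was not tested.

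The genes whose ratios to sham in excision and PNU-282987 lay nearest those of Cd74, over 3 libraries and 10963 candidates with at least 100 counts in the highest library, were Alox15, Sp110, Ifi211, Sp140 and Thy1. Their Euclidean distances on the log2 scale were 0.13, 0.30, 0.43, 0.61 and 0.62. Alox15, a lipoxygenase gene, had 122 counts in PNU-282987, 505 in excision and 57 in sham. Sp110 had 149, 491 and 58, and Ifi211 had 92, 466 and 59 in PNU-282987, excision and sham. Sp140 had 56, 195 and 34, and Thy1 had 17, 111 and 9 in PNU-282987, excision and sham. Ifi211, Sp140 and Thy1 reached 100 counts in excision alone, and the place of Thy1 rests on few counts in PNU-282987 and sham. The nearest neighbours of Ctss were Eppk1, Crebbp, Trim34a, Vasn and Ppfia4, at distances of 0.0089 to 0.082. Crebbp, which encodes a coactivator known to bind Ciita, had 999, 1909 and 1102 counts in PNU-282987, excision and sham. With 3 libraries many genes share any simple pattern, so the likeness is a description.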

How the data were processed

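Bulk RNA of mouse cornea was sequenced in 3 libraries, 1 per group (PNU-282987, excision, sham). Total counts were 37692972 to 39616004 per library. The authors deposited whole-number counts of reads per gene, used here as deposited. Per the submitters' processing notes, HTSeq and R 3.2.0 were used; per the labels' protocols, RNA was isolated with TRIzol and prepared with a VAHTS Universal V6 kit. Not given in the sources used here: aligner, genome build, annotation, strand setting and handling of shared reads.

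Columns were assigned to samples by their titles. Counts were scaled with TMM factors (0.980 for PNU-282987, 0.985 for excision, 1.04 for sham; edgeR 4.0.16, R 4.3.3). Ratios of scaled counts over all 21760 genes, with exact conditional binomial 95% intervals, came from SciPy 1.17.1, pandas 2.3.3 and NumPy 2.4.6 under Python 3.11.15, and plots from matplotlib 3.10.9. Genes with 20 counts in at least 1 library (14180) entered the gene counts. A count of 0 was set to 3. Ratios of ratios had exact conditional intervals, or a large-sample interval where counts were large. The calculation was tested on simulated counts. No molecular identifiers are mentioned, so reads need not be separate molecules, and all intervals and floors cover counting error alone. No p-value was computed. Alternatives tried were other scalings, no minimum count, a 3-fold threshold and 1 added count.

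The members, the 18 gene lists and the naming rule were chosen with earlier results of these data known. The rule named all 9 members, the genes of the remaining class II chain, promoter-binding and interferon-γ lists, up to 4 called genes per further list and comparison, and the 5 genes nearest Cd74 and nearest Ctss. Ctsl, Mif, Cd44, Marchf1, Cd80, Cd86, Adgre1, Itgam, Cd274, Icosl, Calr4, Tnf, H2-T-ps, Brd2, Dexi and the sparse dendritic, B and T cell markers were chosen for mention with their values known. Of the lens, gland, epithelial, vascular and red blood cell lists, counts stand in place of most names. Some results that the rule covers are not reported here.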

Additional observations from a re-analysis of the deposited data

How the results depend on the processing

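No paired analysis was possible because each group had 1 library, and leaving out a replicate was not possible for the same reason. Under library totals, median-of-ratios size factors, 1 added count and, chosen after seeing the data, TMM factors without lens, gland and red blood cell genes, every one of the 27 member ratios stayed inside its counting interval, with a largest shift of 1.12-fold. Under library totals 3 rather than 4 members were higher in PNU-282987 than in sham, since Cd74 came to 1.99-fold. With a 3-fold threshold the members lower in PNU-282987 than in excision numbered 3 and those higher in PNU-282987 than in sham 0. Over all genes that threshold gave 288 higher and 422 lower for excision against sham, 283 and 389 for PNU-282987 against excision, and 161 and 293 for PNU-282987 against sham. With no minimum count there were 948 higher for excision against sham, 1240 lower for PNU-282987 against excision, and 649 higher and 1080 lower for PNU-282987 against sham, since more genes were tested, and the member median for excision against sham was 2.13 once H2-DMb2 entered. Class II counts per macrophage count were 0.152, 0.394 and 0.0731 in PNU-282987, excision and sham with Itgam, and 0.707, 1.71 and 0.410 without it. Those per B cell count were 11.6, 76.2 and 4.59 in PNU-282987, excision and sham with Cd79b, and 27.5, 228 and 7.83 without it. Both alternatives were added after the data were seen. Depth limits Ciita and H2-DMb2, whose ratios carry wide intervals.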
